A study of Mus musculus with 8 samples.

Results

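The 31 genes described here encode proteins of blood coagulation and of fibrinolysis, the dissolution of clots. They were taken by symbol from a table of 47719 genes measured in mouse liver, in which each of the 31 symbols had 1 entry. By role they comprise 13 procoagulant genes, the 3 fibrinogen chain genes, 8 anticoagulant genes, 5 genes of the plasmin system and 2 genes of the vitamin K cycle. The study concerns human hepatocyte organoids that are encapsulated and given to mice with a failing liver. Its 8 liver RNA libraries came from wild type C57BL/6 mice: 2 taken 14 days after an extended hepatectomy (removal of most of the liver), 4 taken 2 days after it, and 2 from normal controls 10 weeks old, while the age of the operated mice was not given in the sources used here. The design text names EMC as a treated control at day 2 and eLO as the treatment at day 2 and day 14, and no label ties a day 2 library to EMC or to eLO. Surgery, treatment and time can therefore not be told apart in the comparisons below.

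Most plasma clotting factors are made by hepatocytes and secreted as inactive precursors. Activated in sequence, they generate thrombin, which cleaves fibrinogen to fibrin, while antithrombin, the protein C system and tissue factor pathway inhibitor hold thrombin formation back and plasmin later digests the fibrin. Several of these proteins need a carboxylation that uses vitamin K, and a few others are made mainly by endothelial cells that line vessels.

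Values are FPKM, fragments scaled by the length of the transcript and by the fragments of the library, a per-length scale on which genes can be compared. The number of reads behind each value is unknown, and steps between the lowest FPKM values (under 0.1) placed the relative depth of the libraries at 0.63 to 1.13 of that of control replicate 1, the lowest in day 14 replicate 1. Day 14 replicate 1 also had the highest mt-Co1 level, 143581 FPKM, and the highest total FPKM, 1298005 against 686332 to 1133922 in the others. Median-ratio factors between libraries lay between 0.983 and 1.028. Replicate numbers within day 14 and day 2 are names in accession order. The 4 day 2 libraries fell into pairs. Across genes, replicate 1 correlated with replicate 2 at r = 0.959 and replicate 3 with replicate 4 at r = 0.968, while no correlation across the pairs exceeded 0.926. Mki67, a gene of cycling cells, was at 0.016, 0.048, 10.5 and 14.9 FPKM in day 2 replicates 1 to 4. The title of day 2 replicate 1 gives day 1 where its age label gives day 2, and the title of replicate 3 adds the letters TVR. The summed FPKM of 6 hepatocyte markers was 54376 and 56891 at day 14, 37171 to 62804 at day 2, and 45238 and 48327 in control, and none of the 6 was called in any comparison. The sum is mostly Alb and Apoa1, whose means differed from control in opposite directions. Alb averaged 24949 FPKM at day 14, 24237 at day 2 and 30983 in control, and Apoa1 20393, 18480 and 8261 FPKM. The sum therefore does not show that hepatocyte content was steady. In bulk tissue, fewer cells of a type and less RNA per cell cannot be told apart.

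All 31 genes passed the filter of 1 FPKM in at least 2 libraries, as did 12340 genes of the table. F8 passed only through the controls, and Thbd and Plat only through day 2 libraries, so the filter itself favoured a difference for these 3. Differences were tested with limma on log2(FPKM + 1), a scale that understates changes of low genes, and a gene was called where its p, adjusted by Benjamini-Hochberg over all genes tested, was under 0.05.

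At day 2 the estimates of 21 of the 31 genes were lower than in control, the fibrinogen genes not among them. Over all tested genes the estimates of 5806 of 12340 were lower. Of the 31, 6 were called lower (F5, F8, F9, F13b, Klkb1 and Plg) and 1 was called higher (Thbd), against 11.5% of all tested genes called lower and 9.72% called higher (21.2% in either direction). The 6 made 19.4% of the 31 and the 1 made 3.23%. Without F8, Thbd and Plat, 5 of 28 were called lower, or 17.9%, and none higher. The median log2 difference over the 31 was -0.58, beside 0.05 over all genes tested. By role, the procoagulant median was -0.91, the anticoagulant median -0.33, the plasmin system median -0.50, the vitamin K cycle median -0.66 and the fibrinogen median 0.22. The fibrinogen median was 0.001 without control replicate 1 and 0.50 without day 2 replicate 4, and the anticoagulant median was -0.57 without day 2 replicate 3 and -0.19 without control replicate 2. These calls rested on both controls: without control replicate 1 or without control replicate 2 none of the 31 was called at day 2, and 96 or 92 genes were called in all, against 2620. Without day 2 replicate 3, 14 of the 31 were called, 11 of them lower and 3 higher. In that fit 2971 of 12094 genes were called in all, 1602 of them lower and 1369 higher.

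At day 14, F8 alone was called against control, lower, where 4.58% of all tested genes were called lower, 5.21% higher and 9.79% in either direction. The median log2 difference of the 31 from control was -0.48, beside -0.002 over all genes tested, and the fibrinogen median was -1.57. The median of the 31 was -0.13 without day 14 replicate 1 and -0.76 without day 14 replicate 2. With only the groups compared in the fit, F5, F11, F13b, Fga, Fgb, Proz, Serpind1 and Serpinf2 were also called lower and Vwf higher. Calls over all 12340 genes rose as well in that fit, to 2664 (1241 lower and 1423 higher) from 1208. Between day 14 and day 2, 3 genes were called higher (F9, Klkb1 and Proc) and 5 lower (Fga, Fgb, Fgg, Thbd and Plat). These are 9.68% and 16.1% of the 31, where 9.09% of all tested genes were called higher at day 14, 7.03% lower and 16.1% in either direction. Without F8, Thbd and Plat, 3 of 28 were called in each direction, or 10.7%. The fibrinogen chains were the only role in which every gene was called, with a median of -1.79 between day 14 and day 2, against 0.49 for procoagulant genes. The procoagulant median was 0.76 without day 14 replicate 1 and 0.26 without day 14 replicate 2. Without day 14 replicate 1 none of the 31 was called at day 14 against day 2 or against control, and without day 14 replicate 2 only Fga was called against day 2. The comparisons share libraries with each other, so their values stand side by side and are not independent.

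**Figure D1:**
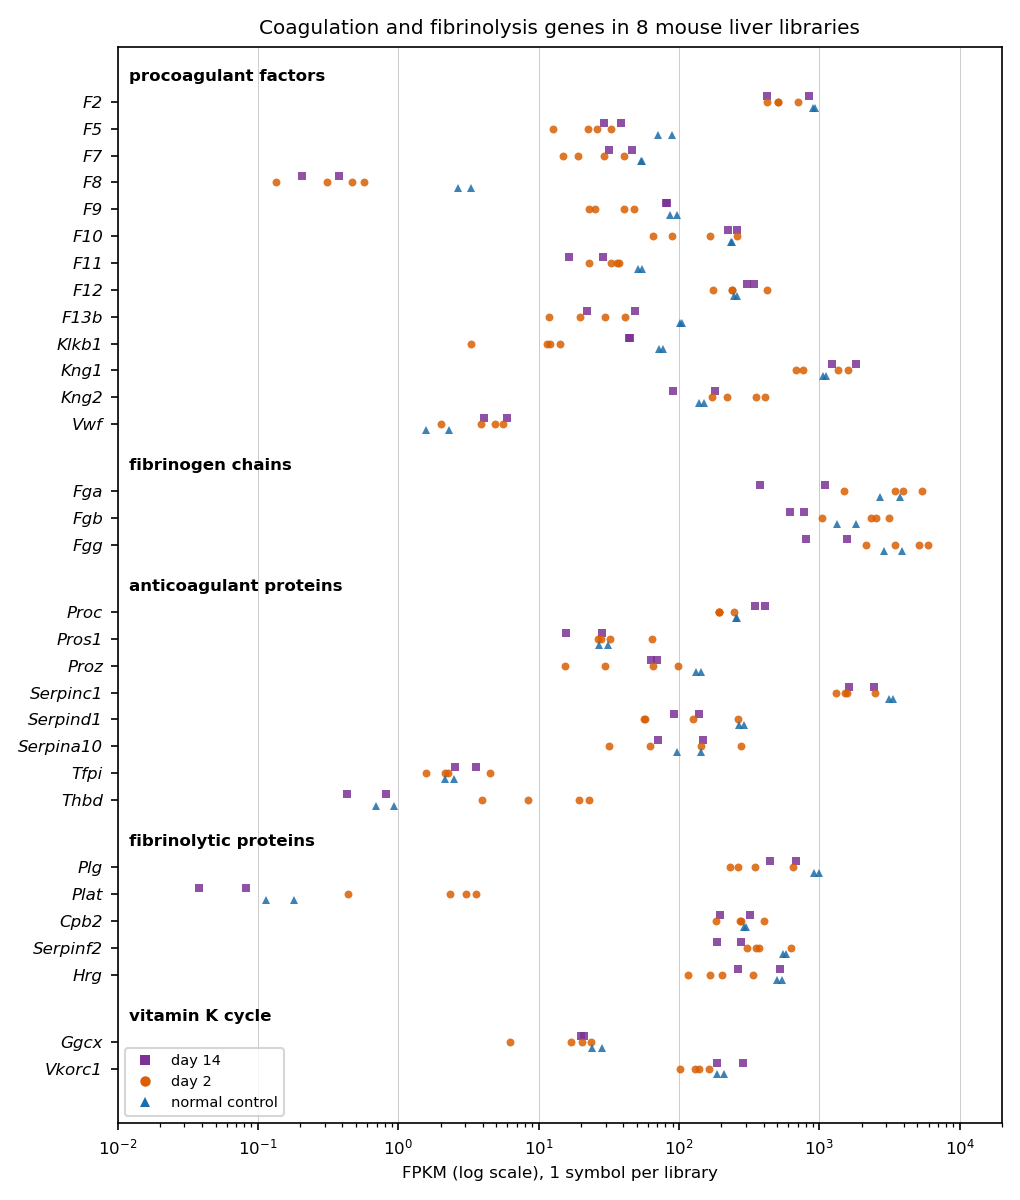
FPKM of the 31 genes on a log axis, 1 symbol per library, with genes in rows grouped by role and colour and symbol giving day 14, day 2 and control. Levels span from 0.038 FPKM for Plat at day 14 to 5944 FPKM for Fgg at day 2, and Klkb1, F5 and F13b show day 2 symbols apart from the controls.

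**Figure D2:**
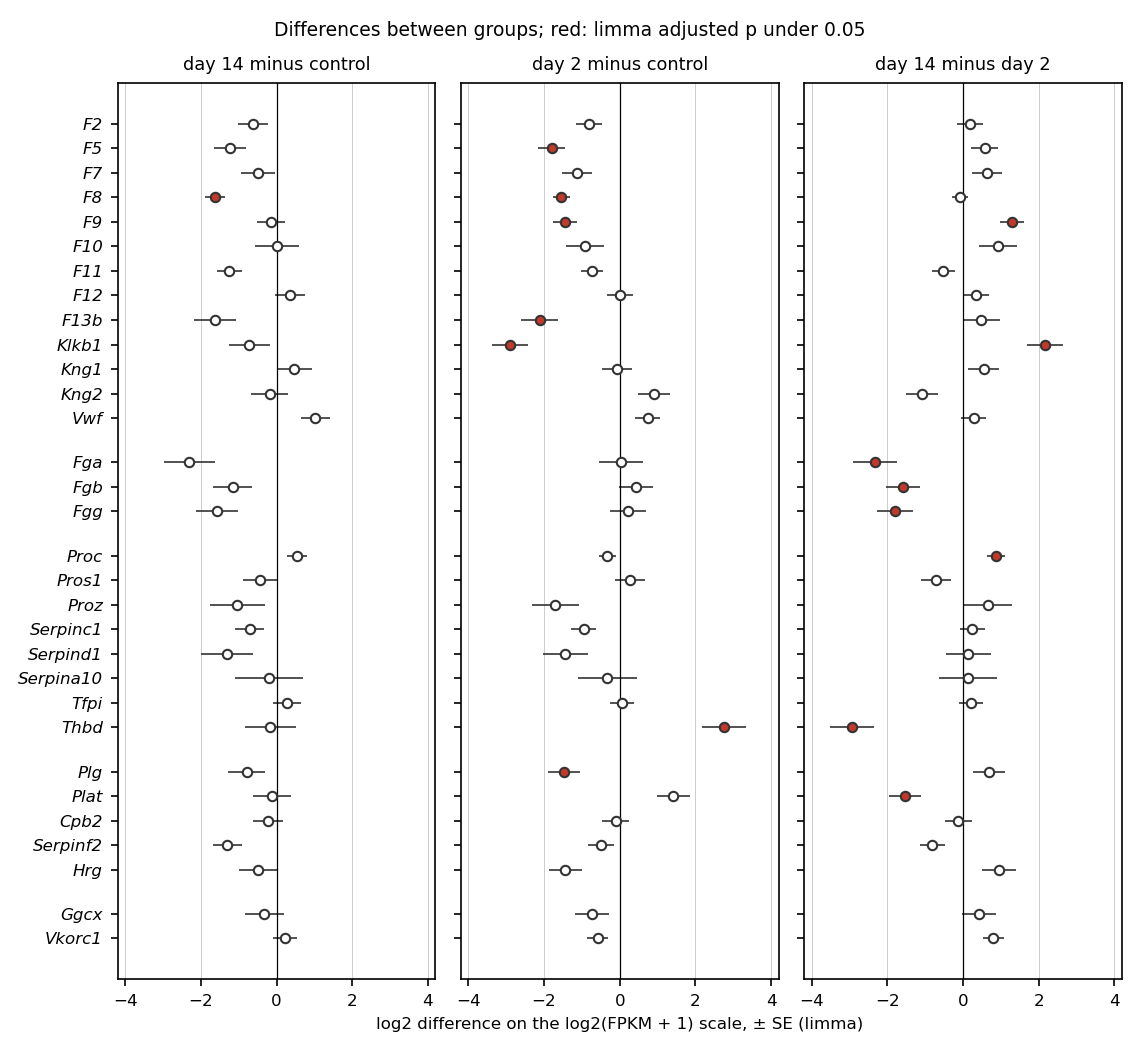
Log2 difference of each gene with its standard error for day 2 against control, day 14 against control and day 14 against day 2, from limma on log2(FPKM + 1), with genes at an adjusted p under 0.05 in red. The fibrinogen genes lie near 0 for day 2 against control and between -2.33 and -1.58 for day 14 against day 2.

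The 3 fibrinogen chains, which together form the precursor of fibrin, are encoded side by side on chromosome 3 of GRCm38: Fgg at 83007724 to 83015049 and Fga at 83026076 to 83033627 on the plus strand, and Fgb at 83040141 to 83049863 on the minus strand. Their promoters are shown because the 3 genes differed together between the hepatectomy groups. The promoter of F9, a gene lower at day 2, is shown beside them. Each runs from 250 bases before to 50 bases after the start, from RefSeq on GRCm38.p6, at chr3:83025903-83026202 (plus strand) for Fga, chr3:83049814-83050113 (minus strand) for Fgb, chr3:83007474-83007773 (plus strand) for Fgg and chrX:59999214-59999513 (plus strand) for F9. Capitals mark matches on either strand to short forms of motifs of liver and acute phase regulators: TTGCNNAA for C/EBP, TTCNNNGAA for STAT3, CTGGGAA for an interleukin-6 response element, and CAAAGTCCA for HNF4, which matched in none.
Fga: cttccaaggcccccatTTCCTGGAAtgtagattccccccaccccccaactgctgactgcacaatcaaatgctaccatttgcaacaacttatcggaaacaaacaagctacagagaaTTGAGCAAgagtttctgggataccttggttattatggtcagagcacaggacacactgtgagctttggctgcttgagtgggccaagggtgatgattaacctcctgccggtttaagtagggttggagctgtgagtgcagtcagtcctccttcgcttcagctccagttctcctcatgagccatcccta
Fgb: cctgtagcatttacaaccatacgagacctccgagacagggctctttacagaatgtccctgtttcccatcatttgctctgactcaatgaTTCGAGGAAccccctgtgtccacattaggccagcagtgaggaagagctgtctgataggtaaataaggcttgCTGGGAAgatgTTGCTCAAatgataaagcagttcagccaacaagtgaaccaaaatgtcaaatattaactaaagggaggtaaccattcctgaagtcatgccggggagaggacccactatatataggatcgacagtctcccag
Fgg: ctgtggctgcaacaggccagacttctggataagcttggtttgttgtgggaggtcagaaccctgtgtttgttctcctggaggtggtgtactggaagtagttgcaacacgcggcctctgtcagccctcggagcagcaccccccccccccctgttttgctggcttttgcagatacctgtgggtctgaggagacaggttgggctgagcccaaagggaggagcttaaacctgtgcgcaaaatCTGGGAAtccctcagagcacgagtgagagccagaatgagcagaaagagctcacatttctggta
F9: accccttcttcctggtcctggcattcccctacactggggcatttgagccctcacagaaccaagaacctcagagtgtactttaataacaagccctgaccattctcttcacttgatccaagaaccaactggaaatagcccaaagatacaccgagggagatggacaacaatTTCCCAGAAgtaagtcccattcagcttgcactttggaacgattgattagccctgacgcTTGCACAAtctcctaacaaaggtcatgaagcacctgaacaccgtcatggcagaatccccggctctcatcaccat
The Fga window held 2 matches, to STAT3 at -234 and C/EBP at -135 from the start. The Fgb window held 3, to STAT3 at -162, the interleukin-6 element at -91 and C/EBP at -80, and the Fgg window held only the interleukin-6 element, at -13. In F9 the interleukin-6 element and STAT3 motifs overlapped at -82, and C/EBP matched at -24. RefSeq gave promoters for 24 of the 31 genes. Of those, 10 held C/EBP, against 10.8% of the 32851 promoters in the RefSeq table, 4 held STAT3, against 8.3%, 5 held the interleukin-6 element, against 11.1%, and none held HNF4, against 0.475%. A match of so few letters describes the window and is not a binding site.

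Fibrinogen RNA was lower in the day 14 libraries than in all others, and at day 2 it varied around the control levels. Fga, the alpha chain, was at 378 and 1092 FPKM at day 14, at 3974, 3469, 5390 and 1492 FPKM at day 2, and at 2722 and 3730 FPKM in control. Both day 14 libraries lay below all other libraries, and day 2 replicate 4 lay below the controls. Fgb, the beta chain, was at 621 and 782 FPKM at day 14, at 2528, 3136, 2314 and 1043 FPKM at day 2, and at 1344 and 1810 FPKM in control. Fgg, the gamma chain, was at 803 and 1583 FPKM at day 14, at 3466, 5944, 5157 and 2158 FPKM at day 2, and at 2877 and 3889 FPKM in control. In each chain the day 14 values lay below all others and the day 2 values spanned the controls. Against day 2, the log2 difference at day 14 was -2.33 ± 0.58 (SE) for Fga (limma, Benjamini-Hochberg adjusted p = 0.0334), -1.58 ± 0.44 for Fgb (adjusted p = 0.0459) and -1.79 ± 0.47 for Fgg (adjusted p = 0.0395). Against control it was -2.31 ± 0.67 for Fga (limma adjusted p = 0.0661), -1.16 ± 0.51 for Fgb (adjusted p = 0.171) and -1.57 ± 0.55 for Fgg (adjusted p = 0.0998), and none was called. Between day 2 and control the differences were 0.03, 0.42 and 0.22 for Fga, Fgb and Fgg, and none was called (limma adjusted p = 0.979, 0.507 and 0.759; Fga turned to -0.15 with quantile scaling). The calls against day 2 did not hold in every setting. Without day 14 replicate 1 the differences were -1.57 for Fga, -1.42 for Fgb and -1.30 for Fgg and none was called, and without day 14 replicate 2 they were -3.10, -1.75 and -2.28 and only Fga was called. All 3 were also uncalled without day 2 replicate 1, without day 2 replicate 3, without either control, with no filter and with only the groups compared in the fit. With quantile scaling all 3 were called lower at day 14 than in control, at -2.59 for Fga (limma adjusted p = 0.0374), -1.45 for Fgb (adjusted p = 0.0483) and -1.93 for Fgg (adjusted p = 0.0271). Fga was also called against control without day 2 replicate 4, at -2.31 (limma adjusted p = 0.0486).

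**Figure D3:**
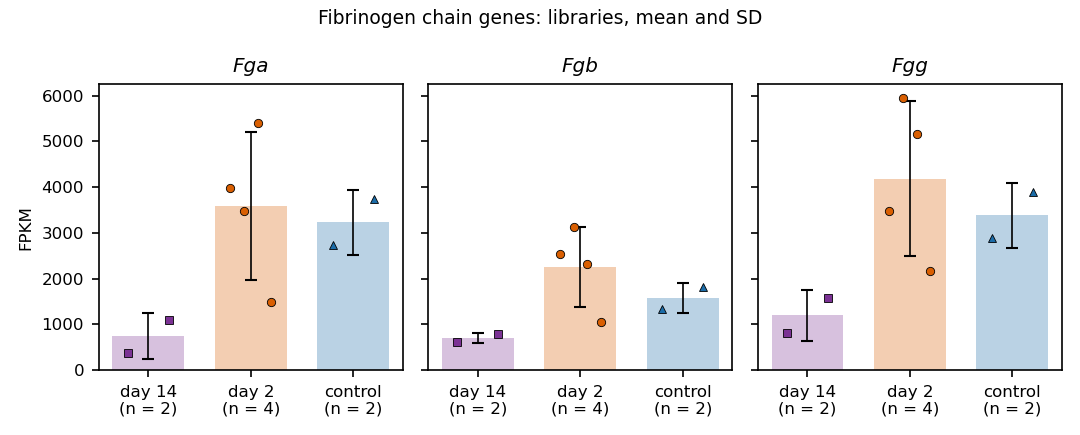
FPKM of Fga, Fgb and Fgg in each library (points), with the group mean (bar) and SD (line), for day 14 (n = 2), day 2 (n = 4) and control (n = 2). In every chain both day 14 points sit below all day 2 and control points, and the day 2 points are spread widely, with replicate 4 the lowest of its group.

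The fibrinogen difference was also seen relative to other hepatocyte products of the same library, where scaling between libraries cancels. The 3 chains summed to 1802 and 3456 FPKM at day 14, to 9968, 12548, 12861 and 4693 FPKM at day 2, and to 6943 and 9428 FPKM in control. Divided by F2, which encodes prothrombin, the sum was 4.26 and 4.13 at day 14, 23.6, 24.6, 18.3 and 9.31 at day 2, and 7.69 and 10.1 in control. The day 14 ratios were close together and below all others, and day 2 replicates 1 to 3 were above the controls. Divided by Alb, the albumin gene, the sum was 0.0757 and 0.132 at day 14, 0.668, 0.617, 0.323 and 0.215 at day 2, and 0.238 and 0.287 in control. Divided by Serpinc1, the antithrombin gene, it was 1.12 and 1.41 at day 14, 7.53, 7.99, 5.20 and 3.08 at day 2, and 2.21 and 2.81 in control, so that all 4 day 2 libraries were above both controls. A ratio shows unequal change of its parts and does not say which part moved. The chains kept no fixed proportion, with Fga at 0.471 and 0.690 of Fgg at day 14, 1.15, 0.584, 1.05 and 0.691 of it at day 2, and 0.946 and 0.959 of it in control. By contrast Serpinc1 stood at 3.82 and 2.93 times F2 at day 14, 3.14, 3.08, 3.53 and 3.03 times at day 2, and 3.49 and 3.59 times in control, a narrow range over all 8 libraries.

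**Figure D4:**
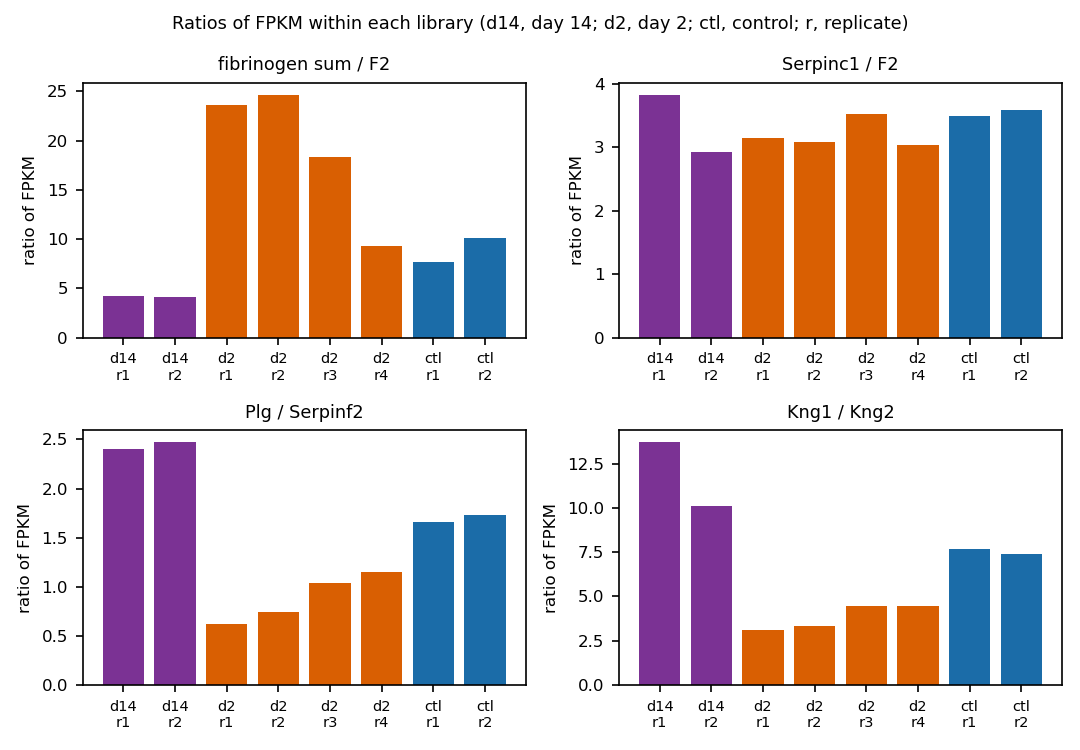
Ratios of FPKM within each library, 1 bar per library, for the fibrinogen sum over F2, Serpinc1 over F2, Plg over Serpinf2 and Kng1 over Kng2. The fibrinogen ratio ranges from 4.13 at day 14 to 24.6 at day 2, while Serpinc1 over F2 stays between 2.93 and 3.82.

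Among procoagulant genes, 5 of 13 (38.5%) were called lower at day 2 than in control and none higher, against 11.5% and 9.72% of all tested genes. F8, 1 of the 5, passed the filter only through the controls. With the 5 FPKM filter, which left F8 untested, 4 of 12 were called lower, against 1026 of all 8263 genes then tested. On the log2(FPKM + 1) scale the largest difference was in Klkb1, which encodes plasma prekallikrein, a contact pathway protease precursor. It was at 44.4 and 44.9 FPKM at day 14, at 3.32, 11.5, 14.2 and 12.02 FPKM at day 2, and at 71.6 and 77.4 FPKM in control. No group overlapped another, and day 2 replicate 1 was lowest. The log2 difference from control was -2.89 ± 0.47 at day 2 (limma adjusted p = 0.00712) and -0.73 ± 0.54 at day 14 (adjusted p = 0.411), and day 14 was above day 2 by 2.17 ± 0.47 (adjusted p = 0.0212). Without control replicate 1 or 2 the day 2 difference was -2.95 or -2.84 and was not called, and without either day 14 library the difference from day 2 was not called. The table's identifier for Klkb1 is given in GENCODE M21, at 45269671 to 45308466 on the minus strand of chromosome 8 of GRCm38, to a model named Gm45753, which overlaps M21's own Klkb1 and shares exons with the neighbour Cyp4v3. Of the 50-base windows of its longest transcript, 82.03% also occur in M21's Klkb1, and reads of the 3 models may not be separable. Cyp4v3, a fatty acid hydroxylase, was at 122 and 97.2 FPKM at day 14, at 29.9, 46.6, 52.2 and 50.3 FPKM at day 2, and at 167 and 191 FPKM in control. It too was called at day 2, with a log2 difference from control of -2.01 ± 0.28 (limma adjusted p = 0.00453).

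F13b, on chromosome 1, encodes the carrier subunit of factor XIII, which cross-links fibrin. It was at 22.1 and 49.0 FPKM at day 14, at 11.8, 19.7, 41.4 and 29.7 FPKM at day 2, and at 102 and 105 FPKM in control. Every library after hepatectomy lay below the controls, and the hepatectomy groups overlapped. The log2 difference from control was -2.11 ± 0.49 at day 2 (limma adjusted p = 0.0218) and -1.62 ± 0.57 at day 14 (adjusted p = 0.0996). F5 encodes factor V, the cofactor that speeds thrombin formation, and lies on chromosome 1 at 164151838 to 164220277. It was at 29.1 and 38.5 FPKM at day 14, at 12.6, 22.4, 32.8 and 26.1 FPKM at day 2, and at 71.2 and 89.8 FPKM in control. Again no hepatectomy library reached the controls. F5 averaged 23.5 ± 8.42 FPKM at day 2 (SD, n = 4) and 80.5 ± 13.1 FPKM in control (SD, n = 2). The log2 difference was -1.80 ± 0.36 at day 2 (limma adjusted p = 0.0134) and -1.23 ± 0.42 at day 14 (adjusted p = 0.0925). Leaving out control replicate 1 or 2 gave -2.13 or -2.09 for F13b and -1.97 or -1.63 for F5 at day 2, none of them called.

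F9 encodes factor IX, which activates factor X and whose deficiency is haemophilia B, and lies on chromosome X at 59999464 to 60030759. It was at 81.0 and 82.7 FPKM at day 14, at 25.3, 22.8, 47.9 and 40.7 FPKM at day 2, and at 85.6 and 96.0 FPKM in control. Day 2 stood apart from both other groups, while day 14 lay just under the controls. The log2 difference from control was -1.45 ± 0.32 at day 2 (limma adjusted p = 0.0193) and -0.15 ± 0.37 at day 14 (adjusted p = 0.838), and day 14 was above day 2 by 1.30 ± 0.32 (adjusted p = 0.0328). The day 2 call was lost without control replicate 1, at -1.53, or control replicate 2, at -1.37. The call between day 14 and day 2 was lost in 7 of 16 settings, among them without day 14 replicate 1, without day 14 replicate 2, without day 2 replicate 1 and without either control.

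F8 encodes factor VIII, the cofactor of factor IX, which in mouse liver comes mainly from endothelial cells rather than hepatocytes, and spans 75172715 to 75382615 on chromosome X. It was at 0.205 and 0.380 FPKM at day 14, at 0.309, 0.134, 0.470 and 0.568 FPKM at day 2, and at 3.30 and 2.67 FPKM in control. All 6 libraries after hepatectomy were below 1 FPKM and both controls above it. The log2 difference from control was -1.55 ± 0.22 at day 2 (limma adjusted p = 0.00495) and -1.62 ± 0.25 at day 14 (adjusted p = 0.0209). Without day 14 replicate 1 the day 14 difference was -1.53 and was not called. With either control left out F8 no longer passed the filter and was not tested. Libraries after hepatectomy also differed from control by transcript length and GC content. With that trend removed F8 differed by -0.91 at day 2 (limma adjusted p = 0.0413) and F5 by -1.38 (adjusted p = 0.0394).

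The protease genes F2, F7, F10, F11 and F12 were not called in any comparison. F2 encodes prothrombin and had 423 and 837 FPKM at day 14, 422, 511, 701 and 504 FPKM at day 2, and 903 and 935 FPKM in control. All 6 hepatectomy libraries were below the controls, with log2 differences from control of -0.63 ± 0.39 at day 14 (limma adjusted p = 0.322) and -0.81 ± 0.34 at day 2 (adjusted p = 0.122). With quantile scaling F2 was called at day 2, at -0.98 (limma adjusted p = 0.0446). F7 encodes factor VII, which starts coagulation with tissue factor, and had 31.6 and 46.3 FPKM at day 14, 14.8 to 40.9 FPKM at day 2, and 53.4 and 54.8 FPKM in control (day 2 minus control, -1.12 ± 0.39, limma adjusted p = 0.0721). F7 was called at day 2 with quantile scaling, with the length and GC trend removed and without day 2 replicate 3, at -1.26, -1.48 and -1.37. F10 encodes factor X, the activator of prothrombin, and had 222 and 261 FPKM at day 14, 65.0, 89.3, 259 and 165 FPKM at day 2, and 239 and 235 FPKM in control. Its day 2 libraries ran from far under the controls to above them, and its groups overlapped in every comparison. F11 encodes factor XI, which activates factor IX, and had 16.4 and 28.8 FPKM at day 14, 22.9 to 37.4 FPKM at day 2, and 51.2 and 54.8 FPKM in control (day 14 minus control, -1.24 ± 0.34, limma adjusted p = 0.0554). That difference was called in 5 other settings, namely the 5 FPKM filter, quantile scaling, only the groups compared, without day 2 replicate 2 and without day 14 replicate 2, with limma adjusted p between 0.0366 and 0.0494. At day 2 F11 was called with quantile scaling, at -0.88 (limma adjusted p = 0.0465). F12 encodes factor XII, which starts the contact pathway, and had 305 and 341 FPKM at day 14, 240, 423, 237 and 176 FPKM at day 2, and 245 and 258 FPKM in control. Both day 14 values of F12 lay above the controls, by 0.36 ± 0.40 on the log2 scale (limma adjusted p = 0.594).

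Kng1 and Kng2 encode kininogens, cofactors of the contact pathway and the source of bradykinin, and 17.95% of the 50-base windows of Kng1 also occur in Kng2, so part of their reads may not be assignable. Kng1 was the most abundant procoagulant gene, with 1235 and 1831 FPKM at day 14, 685, 1361, 1587 and 761 FPKM at day 2, and 1063 and 1106 FPKM in control. The day 2 libraries lay on both sides of the controls and the day 14 libraries above them, by 0.47 ± 0.47 on the log2 scale (limma adjusted p = 0.544). Kng2 had 90.0 and 180 FPKM at day 14, 221, 410, 356 and 171 FPKM at day 2, and 138 and 150 FPKM in control (day 2 minus control, 0.92 ± 0.42, limma adjusted p = 0.152). Day 14 was called lower than day 2 for Kng2 with quantile scaling, at -1.17 (limma adjusted p = 0.0376). The ratio of Kng1 to Kng2 was 13.7 and 10.1 at day 14, 3.09, 3.32, 4.46 and 4.46 at day 2, and 7.68 and 7.39 in control, with no overlap between groups. This ratio was chosen for display because the genes are neighbours, and was not tested. Vwf encodes von Willebrand factor, the platelet adhesion protein and carrier of factor VIII made by endothelium and megakaryocytes, and had 4.06 and 5.91 FPKM at day 14, 4.90, 5.54, 2.00 and 3.88 FPKM at day 2, and 2.31 and 1.57 FPKM in control. It was higher in 5 of the 6 hepatectomy libraries than in both controls, with a log2 difference of 1.02 ± 0.38 at day 14 (limma adjusted p = 0.12) and 0.74 ± 0.33 at day 2 (adjusted p = 0.144). Without day 2 replicate 3 the day 2 difference was 0.98 and was called (limma adjusted p = 0.0314).

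Of the 8 anticoagulant genes, 1 (12.5%) was called higher at day 2 than in control and none lower, against 9.72% and 11.5% of all tested genes. That gene was Thbd, which encodes thrombomodulin, the endothelial receptor that turns thrombin towards activation of protein C, and is a gene on chromosome 2 at 148404466 to 148408188. It was at 0.431 and 0.823 FPKM at day 14, at 19.4, 8.43, 3.94 and 22.7 FPKM at day 2, and at 0.695 and 0.928 FPKM in control. All 4 day 2 libraries were above every other library, and day 14 overlapped control. Thbd passed the filter of 1 FPKM only through day 2 libraries, so the filter favoured its calls. Thbd averaged 13.6 ± 8.88 FPKM at day 2 (SD, n = 4) and 0.811 ± 0.165 FPKM in control (SD, n = 2), a ratio of means of 16.8. The log2 difference from control was 2.76 ± 0.58 at day 2 (limma adjusted p = 0.0158), and that of day 14 from day 2 was -2.92 ± 0.58 (adjusted p = 0.0166). The day 2 call was lost without control replicate 1, at 2.67, or control replicate 2, at 2.85, and the day 14 call without either day 14 library.

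Proc encodes protein C, the vitamin K dependent protease that inactivates factors V and VIII. It was at 346 and 407 FPKM at day 14, at 192, 247, 192 and 192 FPKM at day 2, and at 259 and 255 FPKM in control. The 3 groups did not overlap, with day 14 highest and day 2 lowest. Day 14 was above day 2 by 0.87 ± 0.23 on the log2 scale (limma adjusted p = 0.037), above control by 0.55 ± 0.26 (adjusted p = 0.205), and day 2 differed from control by -0.33 ± 0.23 (adjusted p = 0.319). With the length and GC trend removed Proc was called lower at day 2 than in control, at -0.79 (limma adjusted p = 0.0448). The call between day 14 and day 2 was lost in 8 of 16 settings, among them without either day 14 library, without day 2 replicate 1, 3 or 4 and without either control, over which the difference stayed between 0.74 and 0.99. Relative to F2 of the same library, Proc was 0.819 and 0.487 at day 14, 0.455, 0.483, 0.274 and 0.382 at day 2, and 0.287 and 0.272 in control.

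Serpinc1, which encodes antithrombin, the main inhibitor of thrombin and factor Xa, had 1615 and 2454 FPKM at day 14, 1324, 1571, 2474 and 1526 FPKM at day 2, and 3147 and 3361 FPKM in control. All hepatectomy libraries lay below the controls, with log2 differences of -0.71 ± 0.39 at day 14 (limma adjusted p = 0.256) and -0.96 ± 0.33 at day 2 (adjusted p = 0.0735), and neither was called. With quantile scaling the day 2 difference was -1.17 and was called (limma adjusted p = 0.0249). Its longest transcript shares 58.79% of its 50-base windows with the opposite-strand gene Zbtb37, which was at 0.73 to 2.28 FPKM. Serpind1, which encodes heparin cofactor II, an inhibitor of thrombin, had 91.6 and 138 FPKM at day 14, 57.2, 56.7, 264 and 125 FPKM at day 2, and 269 and 289 FPKM in control. Day 2 replicate 3 nearly reached the controls and the other 5 hepatectomy libraries were far below them. Proz encodes protein Z, the cofactor of the protease inhibitor that Serpina10 encodes, which together inhibit factor Xa. Proz had 63.0 and 70.0 FPKM at day 14, 29.7, 15.5, 97.8 and 65.4 FPKM at day 2, and 132 and 144 FPKM in control, while Serpina10 had 71.1 and 149 FPKM at day 14, 61.7, 31.5, 275 and 143 FPKM at day 2, and 96.6 and 144 FPKM in control. Both were lowest in day 2 replicate 2 and highest of the day 2 group in replicate 3. For day 2 against control the log2 differences were -1.44 ± 0.60 for Serpind1 (limma adjusted p = 0.118), -1.70 ± 0.63 for Proz (adjusted p = 0.0889) and -0.33 ± 0.78 for Serpina10 (adjusted p = 0.783). Without day 2 replicate 3, Serpind1 (-1.90), Proz (-2.10) and Serpinc1 (-1.15) were called lower at day 2. Pros1, which encodes protein S, the cofactor of protein C, had 15.7 and 28.3 FPKM at day 14, 27.6, 64.3, 32.4 and 26.4 FPKM at day 2, and 26.9 and 31.3 FPKM in control. Tfpi, which encodes tissue factor pathway inhibitor, had 2.53 and 3.59 FPKM at day 14, 1.57 to 4.52 FPKM at day 2, and 2.50 and 2.16 FPKM in control. Neither Pros1 nor Tfpi was called in any comparison.

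In the plasmin system, 1 of 5 genes (20%) was called lower at day 2 than in control, against 11.5% of all tested genes. Plg, on chromosome 17 at 12378608 to 12419385, encodes plasminogen, the precursor of plasmin. It was at 448 and 683 FPKM at day 14, at 231, 263, 647 and 350 FPKM at day 2, and at 910 and 997 FPKM in control. All hepatectomy libraries lay below the controls, with day 2 replicate 3 the nearest of its group. The log2 difference from control was -1.47 ± 0.42 at day 2 (limma adjusted p = 0.0424) and -0.78 ± 0.49 at day 14 (adjusted p = 0.323). The day 2 call was lost in 9 of 16 settings, among them without control replicate 1, at -1.54, without control replicate 2, at -1.41, without day 2 replicate 1, 2 or 4, and without either day 14 library. Of the 50-base windows of Plg, 13.77% are shared with the opposite-strand gene Slc22a3, at 0.965 to 2.21 FPKM. Hrg, whose product binds plasminogen and heparin, had 265 and 522 FPKM at day 14, 116, 204, 338 and 167 FPKM at day 2, and 496 and 540 FPKM in control (day 2 minus control, -1.43 ± 0.44, limma adjusted p = 0.053). It was called in 5 other settings: the 5 FPKM filter (limma adjusted p = 0.0472), quantile scaling (-1.76, adjusted p = 0.0149), no mean-variance trend (adjusted p = 0.0489), removal of the length and GC trend (-1.49, adjusted p = 0.0449) and leaving out day 2 replicate 3 (-1.71, adjusted p = 0.0186).

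Plat encodes tissue plasminogen activator, which cuts plasminogen to plasmin and is made by endothelium, and lies on chromosome 8 at 22757727 to 22782844. It was at 0.038 and 0.082 FPKM at day 14, at 3.55, 3.03, 0.438 and 2.35 FPKM at day 2, and at 0.114 and 0.181 FPKM in control. Every day 2 library was above every other library, and day 14 was below control. Plat passed the filter of 1 FPKM only through day 2 libraries, so the filter favoured its differences between day 2 and the other groups. The 5 FPKM filter left Plat untested. Day 14 differed from day 2 by -1.53 ± 0.43 (limma adjusted p = 0.0472), and day 2 from control by 1.42 ± 0.43 (adjusted p = 0.0504), just outside the threshold. The difference from control was called in 5 other settings. It was 1.78 without day 2 replicate 3 (limma adjusted p = 0.00356), 3.01 with a pseudocount of 0.1 (adjusted p = 0.0357), 1.42 with quantile scaling (adjusted p = 0.0486), 1.42 with no mean-variance trend (adjusted p = 0.0497) and 1.69 with the length and GC trend removed (adjusted p = 0.0442). The call between day 14 and day 2 was lost in 10 of 15 settings.

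Serpinf2 encodes alpha-antiplasmin, the main inhibitor of plasmin, and had 187 and 276 FPKM at day 14, 372, 356, 625 and 304 FPKM at day 2, and 549 and 576 FPKM in control. Day 14 lay below both other groups, with log2 differences of -1.30 ± 0.39 against control (limma adjusted p = 0.0679) and -0.81 ± 0.33 against day 2 (adjusted p = 0.13). Against control it was called with quantile scaling (-1.77), with only the groups compared and without day 2 replicate 3. Plg relative to Serpinf2 of the same library was 2.40 and 2.47 at day 14, 0.620, 0.739, 1.04 and 1.15 at day 2, and 1.66 and 1.73 in control, with no overlap between the groups. This ratio of a proenzyme to its inhibitor was described and not tested. Cpb2 encodes the carboxypeptidase that makes fibrin resistant to plasmin, and had 197 and 319 FPKM at day 14, 184 to 402 FPKM at day 2, and 289 and 301 FPKM in control. Its groups overlapped in all 3 comparisons.

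The vitamin K cycle genes were not called. Ggcx encodes the carboxylase that modifies the vitamin K dependent factors, and had 19.96 and 21.2 FPKM at day 14, 17.0, 6.29, 23.5 and 20.2 FPKM at day 2, and 24.0 and 28.2 FPKM in control. Vkorc1 encodes the reductase that recycles vitamin K and is the target of warfarin. It had 186 and 283 FPKM at day 14, 101, 129, 164 and 139 FPKM at day 2, and 187 and 208 FPKM in control. Day 2 lay below both other groups for Vkorc1, with a log2 difference from control of -0.58 ± 0.28 (limma adjusted p = 0.166), while day 14 was above day 2 by 0.80 ± 0.28 (adjusted p = 0.083). Of the 50-base windows of Vkorc1, 50.5% are shared with the overlapping model Gm21974, which was at no more than 0.039 FPKM. With the trend in transcript length and GC content removed, Vkorc1 was called at day 2, at -1.10 (limma adjusted p = 0.0392). The 7 proteins that depend on this cycle, F2, F7, F9, F10, Proc, Pros1 and Proz, had a median log2 difference of -0.91 at day 2 against control, with F9 called, and of -0.44 at day 14 against control, with none called.

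Of the genes known from endothelium, F8 was called lower at day 2, Thbd was called higher, and Vwf, Tfpi and Plat were not called. F8 passed the filter only through the controls and Thbd only through day 2 libraries. The filter favoured both calls, so they do not show how endothelial genes moved as a group. The summed FPKM of 8 endothelial markers was 43.6 and 55.6 at day 14, 52.0 to 94.6 at day 2, and 99.8 and 92.9 in control. In both hepatectomy groups the estimates of 7 of the 8 were lower than in control, and that of Stab1 was higher. Stab1 averaged 9.38 FPKM in control, gave 9.83 to 53.4 FPKM of the day 2 sums, and was not called. Of these markers 1 was called lower at day 2 (Kdr) and 2 at day 14 (Kdr and Lyve1), Lyve1 was also lower at day 14 than at day 2, and their median log2 difference from control was -1.23 at day 14 and -0.39 at day 2. Platelet and megakaryocyte markers summed to 16.0 and 11.95 FPKM at day 14, 4.10 to 27.7 FPKM at day 2, and 4.38 and 3.00 FPKM in control, with 3 of 7 tested and none called. The lowest day 2 sum was in replicate 3, which also had the lowest Vwf and Plat of its group. Neutrophil markers summed to 13.5 and 70.9 FPKM at day 14, 138, 318, 87.0 and 31.1 FPKM at day 2, and 3.57 and 7.17 FPKM in control. Of their 6 genes 4 were tested and 3 (S100a8, S100a9 and Retnlg) were called higher at day 2, with log2 differences from control of 3.64 to 3.99. Kupffer cell markers summed to 46.9 and 47.7 FPKM at day 14, 73.9 to 143 FPKM at day 2, and 91.8 and 75.8 FPKM in control. Of their 5 genes Marco, a scavenger receptor, was called higher at day 2, with 50.1 ± 21.7 FPKM (SD, n = 4) against 2.104 ± 0.394 FPKM in control (SD, n = 2; limma adjusted p = 0.00162), and lower at day 14 than at day 2. The estimates of the other 4 were lower at day 2 than in control, none of them called. The median log2 difference of the 5 was -0.47. Vsig4 was called lower at day 14 than in both other groups. Stellate cell markers summed to 31.1 and 51.2 FPKM at day 14, 61.5 to 157 FPKM at day 2, and 68.1 and 67.8 FPKM in control, with Dcn of their 5 genes called lower at day 14 than at day 2. Cholangiocyte markers summed to 5.52 and 4.94 FPKM at day 14, 4 to 19.97 FPKM at day 2, and 3.25 and 3.96 FPKM in control, with 3 of 4 tested and none called. The part of these cells in F8, Vwf, Thbd and Plat was not tested.

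**Figure D5:**
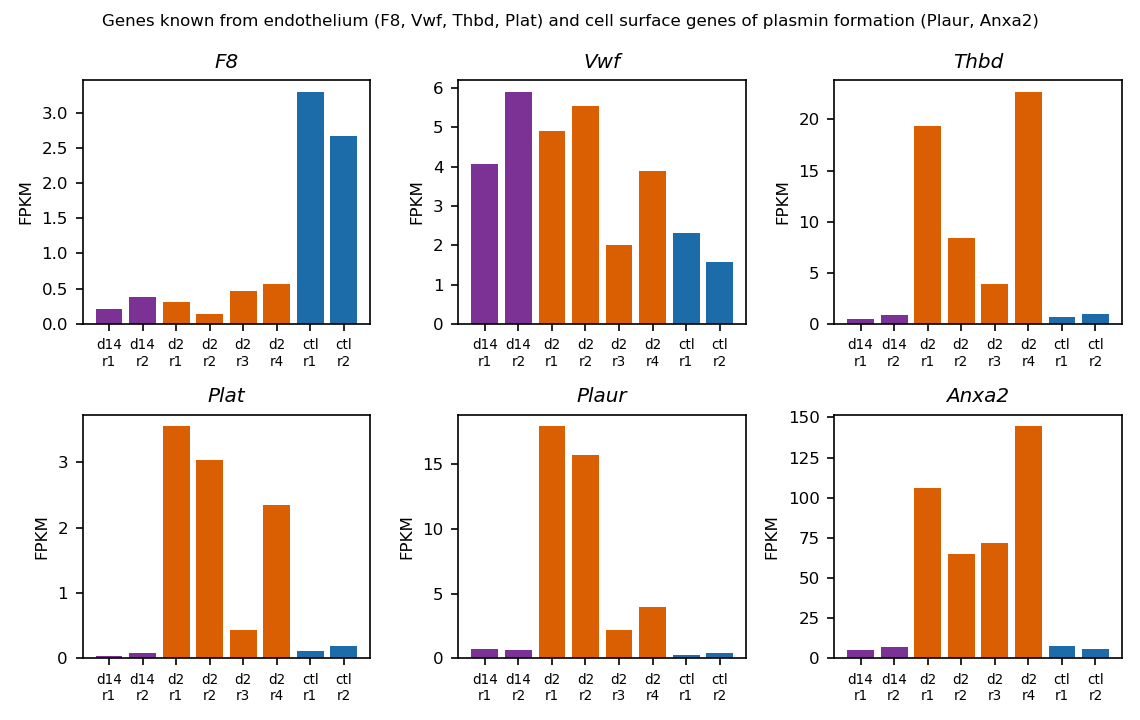
FPKM in each library of F8, Vwf, Thbd and Plat, genes known from endothelium, and of Plaur and Anxa2, cell surface genes of plasmin formation, 1 bar per library. F8 stands only in the controls above 1 FPKM, and Thbd, Plat, Plaur and Anxa2 stand highest in day 2 libraries.

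The 4 day 2 libraries were far from alike, both for these genes and over all tested genes. In 13 of the 31 genes day 2 replicates 3 and 4 were both above replicates 1 and 2, namely F5, F7, F8, F9, F10, F13b, Klkb1, Proz, Serpind1, Serpina10, Plg, Ggcx and Vkorc1, against 26.7% of all tested genes. In 5, namely F11, F12, Vwf, Fgb and Plat, both were below, against 27.4%. Such splits were common over all tested genes and are not particular to the 31. The pairs were noticed in these same libraries and no label separates them, so no test was made between them.

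Neighbouring genes did not always stand at a fixed ratio. F7, F10 and Proz follow each other on the plus strand of chromosome 8, from 13026034 to 13076026. F10 was 7.04 and 5.63 times F7 at day 14, 4.38, 4.65, 6.33 and 5.62 times at day 2, and 4.48 and 4.29 times in control. F10 was 3.52 and 3.73 times Proz at day 14, 2.19, 5.77, 2.65 and 2.52 times at day 2, and 1.82 and 1.63 times in control, so all hepatectomy libraries were above the controls. F11, at 45241174 to 45262031 beside Klkb1 on chromosome 8, was 0.370 and 0.641 times Klkb1 at day 14, 11.3, 3.13, 2.29 and 1.90 times at day 2, and 0.715 and 0.709 times in control. The pair changed order, with F11 above Klkb1 in every day 2 library and below it in all others. Hrg, Kng2 and Kng1 lie on chromosome 16 from 22951072 to 23082078. Kng1 was 4.66 and 3.51 times Hrg at day 14, 5.92, 6.69, 4.69 and 4.55 times at day 2, and 2.14 and 2.05 times in control.

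The order of levels within the 31 genes also differed between groups. At day 14 Serpinc1 was first at 2035 FPKM on average, followed by Kng1 at 1533 and Fgg at 1193 FPKM. At day 2 the fibrinogen genes were the first 3, with Fgg at 4181, Fga at 3581 and Fgb at 2255 FPKM on average, before Serpinc1 at 1724 FPKM. In control Fgg averaged 3383, Serpinc1 3254 and Fga 3226 FPKM, which did not differ beyond their spread. Plat, Thbd, Tfpi, Vwf and F8 were the 5 lowest of the 31 in control and at day 14, and at day 2 Klkb1 took the place of Thbd among them.

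Around these genes, a list of 35 others of the same pathways and their regulators was examined in 4 lists. Of 9 genes of fibrinolysis and protease inhibition 6 were tested, and 3 were called higher at day 2 than in control and none lower. Of all tested genes, 9.72% were called higher and 11.5% lower. Anxa2 and S100a10 encode the subunits of a surface receptor that brings plasminogen and its activator together. Anxa2 was at 5.07 and 7.29 FPKM at day 14, at 106, 65.1, 72.0 and 145 FPKM at day 2, and at 7.73 and 5.78 FPKM in control. S100a10 was at 93.3 and 122 FPKM at day 14, at 523, 422, 341 and 491 FPKM at day 2, and at 150 and 145 FPKM in control. For both, all day 2 libraries were above all others. The log2 difference of day 2 from control was 3.60 ± 0.35 for Anxa2 (limma adjusted p = 0.00174) and 1.57 ± 0.26 for S100a10 (adjusted p = 0.00771). Plaur, the receptor of urokinase, was at 0.682 and 0.619 FPKM at day 14, at 17.9, 15.7, 2.17 and 3.92 FPKM at day 2, and at 0.248 and 0.386 FPKM in control (day 2 minus control, 2.67 ± 0.69, limma adjusted p = 0.0308). Plaur, 1 of the 3, passed the filter only through day 2, which favoured its call. Plgrkt, a plasminogen receptor, was higher at day 14 (16.8 FPKM) than at day 2 (5.11 FPKM), by 1.59 ± 0.29 on the log2 scale (limma adjusted p = 0.0132), and than in control (6.31 FPKM), by 1.29 ± 0.33 (adjusted p = 0.0491).

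Of 12 genes of secretion, matrix and cofactors 11 were tested, with none called at day 2 and 1, Vtn, called higher at day 14. Of all tested genes, 5.21% were called higher at day 14 than in control. Vtn encodes vitronectin, an adhesion protein of plasma and matrix, and was at 4558 and 5462 FPKM at day 14, at 1477 to 2462 FPKM at day 2, and at 1621 and 1800 FPKM in control. Day 14 exceeded control by 1.55 ± 0.34 (limma adjusted p = 0.0346) and day 2 by 1.28 ± 0.29 (adjusted p = 0.026), while fibrinogen in the same day 14 libraries was at its lowest. Of 7 genes of the cell surface and of initiation 4 were tested. F2r, a thrombin receptor, was called lower at day 14 (5.81 ± 0.461 FPKM, SD, n = 2) than in control (20.3 ± 2.55 FPKM, SD, n = 2; limma adjusted p = 0.0427), and Ano6, a lipid scramblase, lower at day 14 (1.03 FPKM) than at day 2 (2.75 FPKM; limma adjusted p = 0.045).

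All 7 listed regulators of hepatocyte transcription were tested, and at day 2 against control 2 were called lower and 1 higher. Over all tested genes 11.5% were called lower and 9.72% higher. Cebpa, which encodes a C/EBP factor of the differentiated hepatocyte, was at 166 and 168 FPKM at day 14, at 31.5, 44.6, 50.03 and 21.3 FPKM at day 2, and at 127 and 103 FPKM in control (day 2 minus control, -1.68 ± 0.34, limma adjusted p = 0.0144). Onecut1, a further hepatocyte regulator, was lower at day 2, with a log2 difference of -2.30 ± 0.52 (limma adjusted p = 0.0202), and Nr1i2, a nuclear receptor for foreign compounds, was higher by 0.79 ± 0.23 (adjusted p = 0.0441). Onecut1 stood at 22.4 and 6.29 FPKM in the controls, which differed widely. At day 14 Cebpb, an acute phase C/EBP factor, was at 133 and 95.7 FPKM, against 19.2 and 26.8 FPKM in control (log2 difference 2.26 ± 0.44, limma adjusted p = 0.0296). Day 14 exceeded day 2 in Cebpa by 2.22 ± 0.34 (limma adjusted p = 0.00802), in Onecut1 by 2.27 ± 0.52 (adjusted p = 0.026) and in Foxa2 by 1.20 ± 0.33 (adjusted p = 0.0451). Hnf4a, a central regulator of hepatocyte genes, was at 136 and 120 FPKM at day 14, at 72.1 to 155 FPKM at day 2, and at 121 and 146 FPKM in control, and was not called.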

How the data were processed

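RNA of 8 mouse liver libraries was prepared with a TruSeq RNA kit, per the labels' protocols. The authors deposited 1 table of gene-level FPKM values with 1 column per library. Tools named in the submitters' processing notes are DESeq2, HTSeq, Cufflinks 2.2.1 and HISAT2 2.10, and genome builds mm9 and GRCm38, without role or order. The sources used here do not say which of them produced the table, whether strand was used in counting or how libraries were scaled, and read depth is unknown.

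From the deposited FPKM, log2(FPKM + 1) was computed for the 12340 genes that reached 1 FPKM in 2 or more libraries (25829 of 47719 were at 0 in all 8). One limma model (limma 3.58.1, R 4.3.3) with a mean for each of the 3 groups and a mean-variance trend was fitted, with 5 residual and 3.23 prior degrees of freedom. P-values were Benjamini-Hochberg adjusted over all genes tested within each comparison. The method was tested on simulated data. No label says that the libraries within a group are from different mice, and p-values refer to the spread among these libraries. Groups follow the age labels. The 31 genes, their roles and all other lists were chosen with earlier results of these data known. Every one of the 31 is named. Genes called in any comparison, the fibrinogen genes and the most abundant uncalled gene of each role have values in every library, as do others where libraries differ widely. Of the other lists, called genes are named, and Hnf4a was added after its values were seen. A few listed items are not reported here. Alternatives were a pseudocount of 0.1, no filter, a 5 FPKM filter, quantile and median-ratio scaling, a fit of only the groups compared, no trend, removal of the trend in transcript length and GC content (splines with 4 degrees of freedom, for 99.7% of tested genes) and leaving out each library. They were run for the 31 genes and the counts of calls, not for single genes of the other lists.

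Positions, transcript lengths and shared 50-base windows come from GENCODE M21 on GRCm38. Promoters come from RefSeq on GRCm38.p6. Plots were made in Python 3.11.15 with matplotlib 3.10.9.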

Additional observations from a re-analysis of the deposited data

Results flagged for a closer look

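Day 2 replicate 2 stood apart from the other 3 day 2 libraries in Proc, at 247 FPKM (246.79) against 192 FPKM in each of the others, and in Pros1, at 64.3 FPKM (64.26) against 26.4 to 32.4 FPKM. The gap to the nearest library was 0.987 of the group's range for Proc and 0.843 for Pros1, above Dixon's 95% critical value for 4 libraries. Chance alone flags about 5% of groups, and 31 genes were looked at. Proc and Pros1 encode protein C and its cofactor protein S.

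The effects of day 14 and of day 2 differed by limma's test of day 14 minus day 2 in 8 genes. Of all tested genes, 16.1% were called in that comparison. Among the 8, Thbd and Plat passed the filter only through day 2 libraries, which favoured their calls. On the log2 scale the difference was 1.30 for F9 (adjusted p = 0.0328), 2.17 for Klkb1 (adjusted p = 0.0212) and 0.87 for Proc (adjusted p = 0.037). It was -2.33 for Fga (adjusted p = 0.0334), -1.58 for Fgb (adjusted p = 0.0459), -1.79 for Fgg (adjusted p = 0.0395), -2.92 for Thbd (adjusted p = 0.0166) and -1.53 for Plat (adjusted p = 0.0472). Each call was lost without at least 1 of the day 14 libraries. Because the time points also differ in treatment by the design text, time and treatment cannot be told apart.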

How the results depend on the processing

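No paired analysis was possible because the groups compared share at most 1 leading number in the titles of their libraries, and no label says that such a number marks a shared mouse, batch or day. The replicate numbers used here for day 14 and day 2 follow accession order. Over 1473 recomputed differences of the 31 genes, 1316 kept their direction and side of the threshold, 73 lost a call, 42 gained one and 42 changed sign, none of the last being called. Of 306 recomputed class medians 304 moved by less than the SD of the class median among libraries of the first of the groups compared. With 2 day 14 libraries, leaving 1 out could hardly move a median by more than that. Some settings, such as no trend or only the groups compared, left the differences themselves unchanged. The count is therefore no measure of stability. The number of called genes at day 14 against control was 691 with no filter, 2664 with only the groups compared and 529 with the length and GC trend removed, against 1208. At day 14 against day 2 it was 982 with only the groups compared, against 1990. Called genes among the 31 numbered 13 with quantile scaling and 12 with the length and GC trend removed at day 2 against control (7 as reported), 6 with quantile scaling and 10 with only the groups compared at day 14 against control (1 as reported), and 3 with no filter and 2 with only the groups compared at day 14 against day 2 (8 as reported). Over all genes tested, quantile scaling gave 2760 calls at day 2 against control and 1315 at day 14 against control. Removal of the length and GC trend gave 1753 at day 2 against control. A filter at 5 FPKM, which left Plat untested, moved the plasmin system median at day 2 to -0.97.

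Leaving out 1 library at a time gave 92 to 2971 called genes and 0 to 14 of the 31 at day 2 against control, the lowest counts without a control. It gave 0 to 2097 genes and 0 to 2 of the 31 at day 14 against control, and 17 to 2472 genes and 0 to 6 of the 31 at day 14 against day 2, the lowest without day 14 replicate 1. A group of 1 library was then assumed to vary like the others. The anticoagulant median at day 2 lay between -0.57 and -0.19.

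Sign changes came in differences that were not called. With quantile scaling F12 was at -0.14 and Fga at -0.15 for day 2 against control, and F10 at -0.26 and Vkorc1 at -0.049 for day 14 against control. With the length and GC trend removed F12 was at -0.43 for day 2 against control, and F10 at -0.006, Serpina10 at 0.04, Plat at 0.17 and Vkorc1 at -0.29 for day 14 against control. Over left-out libraries, day 2 against control ran from -0.22 to 0.20 in F12, -0.28 to 0.12 in Kng1, -0.22 to 0.40 in Fga, -0.015 to 0.40 in Pros1, -0.84 to 0.19 in Serpina10, -0.16 to 0.21 in Tfpi and -0.30 to 0.077 in Cpb2. Day 14 against control ran from -0.093 to 0.14 in F10, -0.67 to 0.32 in Kng2, -0.72 to 0.33 in Serpina10, -0.34 to 0.012 in Thbd, -0.58 to 0.12 in Cpb2, -0.96 to 0.01 in Hrg and -0.081 to 0.52 in Vkorc1. Day 14 against day 2 ran from -0.31 to 0.67 in F2, -0.18 to 0.021 in F8, -0.071 to 1.04 in F13b, -0.052 to 0.55 in Serpinc1, -0.15 to 0.60 in Serpind1, -0.40 to 0.66 in Serpina10 and -0.47 to 0.23 in Cpb2. The cause of these changes was not tested. Read depth is unknown, so the counting error of Plat, F8, Thbd and other low genes cannot be given, and with 2 libraries in 2 of the groups single libraries decide most calls.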
